A study of Mus musculus with 16 samples.

Results

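The genes described here flank Pts on mouse chromosome 9. They are 53 genes chosen by their position, of which 28 lie before Pts and 25 after it in the order of the RefSeq gene table (assembly GRCm38.p6). Of the 53 genes, 47 carried at least 1 probe, with 56 of the 25697 probes and 47 of the 16593 gene symbols on the array, and Kmt2a, Npat, Zc3h12c, Mpzl3, Ddx10 and Layn carried none. All 47 lay within 10 Mb of Pts, where they made up 47 of the 201 genes with a probe, Pts itself counted among the 201. The list is not every gene of that stretch, and it was drawn up with earlier results of the same arrays known, so the share of its probes that passed a test is a description of the list.

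The mice were 8 males of 17 weeks, labelled as strain C57BL/6J. Of these, 4 were wild type and 4 homozygous for the knock-in allele Pts-R15C-ki. From each mouse 1 brain and 1 liver RNA sample went onto a single-colour Illumina bead array, so that each genotype had 4 arrays per tissue, 16 in all. Brain and liver arrays of a genotype that carry the same number belong to 1 mouse, but a number shared by the 2 genotypes links no animals. Pts encodes 6-pyruvoyltetrahydropterin synthase, which acts in the synthesis of tetrahydrobiopterin, a cofactor that nitric oxide synthases and the hydroxylases of aromatic amino acids need. The strain of the cells in which the allele was made and the number of backcrosses are not given in the sources used here. The flanking chromosome of homozygous mice may therefore differ in sequence from that of wild-type mice, and a difference in transcript level and a difference in how well a probe matches its transcript cannot be told apart on these arrays.

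Genes that lie side by side on a chromosome need share no function, and those around Pts have no single function in common. The stretch holds Il18, a cytokine of the interleukin-1 family that is made as an inactive precursor; Atm, the kinase that starts the response to DNA double-strand breaks, and H2ax, the histone variant that Atm phosphorylates beside a break; and Cryab and Dnaja4, a small heat shock protein and a co-chaperone of Hsp70. It also holds Sorl1 and Bace1, a sorting receptor for the amyloid precursor protein and the protease that makes the first cut in amyloid beta production. Pkm, Dlat and Acat1 encode pyruvate kinase, the acetyltransferase subunit of the pyruvate dehydrogenase complex and a mitochondrial acetoacetyl-CoA thiolase. In the brain Ncam1, Cadm1, Scn2b and Scn4b encode adhesion molecules and sodium channel subunits of neurons.

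Promoter sequences are shown for the 4 genes of the list that passed the test in liver and lie within 5 Mb of Pts. Other genes within 5 Mb, not on the list, also passed. Each window runs from 250 bases before to 50 bases after the annotated start, 5′ to 3′ on the gene's own strand, as RefSeq gives it for GRCm38.p6. Capitals mark matches on either strand to the TATA box core TATAAA, to the box named for its letters CCAAT, to the GC box core GGGCGG, and to the paired heat shock element units GAANNTTC and, in the other order, TTCNNGAA. The last 2 read the same on both strands and can overlap each other.
Il18, chr9:50554450-50554749, plus strand: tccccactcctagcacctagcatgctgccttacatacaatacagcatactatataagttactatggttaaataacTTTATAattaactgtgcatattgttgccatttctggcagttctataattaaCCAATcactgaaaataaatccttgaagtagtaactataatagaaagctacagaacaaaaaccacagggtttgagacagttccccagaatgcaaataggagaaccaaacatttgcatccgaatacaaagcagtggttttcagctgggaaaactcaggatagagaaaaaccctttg
Nxpe2, chr9:48340849-48341148, minus strand: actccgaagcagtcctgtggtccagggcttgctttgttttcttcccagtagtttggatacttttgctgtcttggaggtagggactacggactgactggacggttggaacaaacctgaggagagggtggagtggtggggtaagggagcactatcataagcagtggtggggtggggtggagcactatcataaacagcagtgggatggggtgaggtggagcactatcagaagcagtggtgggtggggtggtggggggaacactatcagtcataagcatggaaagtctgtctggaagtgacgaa
Atm, chr9:53536622-53536921, minus strand: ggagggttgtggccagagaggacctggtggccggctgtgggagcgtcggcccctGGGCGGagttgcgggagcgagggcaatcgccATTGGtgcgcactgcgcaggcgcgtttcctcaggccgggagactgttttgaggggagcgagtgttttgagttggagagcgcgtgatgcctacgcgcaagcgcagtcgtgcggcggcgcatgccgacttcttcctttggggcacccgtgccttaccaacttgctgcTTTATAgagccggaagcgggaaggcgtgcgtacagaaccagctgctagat
Dnaja4, chr9:54699033-54699332, plus strand, the first of 2 windows listed: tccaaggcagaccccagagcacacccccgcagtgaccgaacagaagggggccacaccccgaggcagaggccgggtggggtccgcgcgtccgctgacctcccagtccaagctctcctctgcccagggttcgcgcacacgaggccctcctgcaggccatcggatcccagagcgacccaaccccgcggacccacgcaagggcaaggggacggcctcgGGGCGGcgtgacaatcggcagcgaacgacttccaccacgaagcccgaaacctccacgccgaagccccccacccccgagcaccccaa

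The 4 windows differ in base composition. The Il18 window was AT-rich, with a GC content of 36.7% and 1 CG dinucleotide, and held 1 TATAAA match, on the opposite strand, and 1 CCAAT match. The Nxpe2 window had a GC content of 53.3% and 4 CG dinucleotides and matched none of the 5 motifs. The Atm window had a GC content of 64% and 28 CG dinucleotides, with 1 match each to the TATA core, the CCAAT letters and the GC box core, the first 2 of them on the opposite strand. The Dnaja4 window had a GC content of 70.3%, 28 CG dinucleotides and 1 GGGCGG match. Over all 32851 RefSeq promoter windows of the same length, the median GC content was 52.7% with 7 CG dinucleotides, and 13.6% held the TATA core, 37.4% the CCAAT letters, 35.7% the GC box core and 7.86% and 8.52% the first and second heat shock pair. Of the 53 genes, 38 had a window in the RefSeq table. A match is a description of the letters and not a binding site.

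The arrays detected 13241 to 14576 probes in brain and 11785 to 12315 in liver at a detection p-value under 0.05, and the number of arrays, 4 per group, limits the precision. Neuron markers averaged 9.30 to 9.50 on the log2 scale on the brain arrays, where Snap25 was not detected, and hepatocyte markers 11.47 to 11.85 on the liver arrays. The liver arrays of wild-type mice 1 and 2 stood apart on the first principal component, at -43.8 and -46.4 against 2.79 to 20.9 for the other 6, and the acute phase genes averaged 13.43 and 13.49 there, 11.59 and 12.22 on the other wild-type arrays and 10.74 to 11.07 on the homozygous ones. The neutrophil and monocyte markers averaged 6.73 and 6.70 in the brains of the same 2 mice against 4.69 to 5.09 on the other 6 brain arrays, with Camp and Ngp undetected. The first principal component of the brain arrays, with 51.7% of the variance, separated 4 brighter arrays (wild type 1 and 3, homozygous 1 and 2) from 4 dimmer ones. In these bulk samples fewer cells of a type and less RNA per cell cannot be told apart.

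Pts itself carried 2 probes, and the labels do not place either of them against the altered codon, so neither checks the genotype. In liver the first probe read 8.98, 8.77, 9.13 and 9.23 in wild-type and 9.54, 9.71, 9.58 and 9.61 in homozygous mice, a log2 difference of 0.58 (SE 0.12, n = 4 per genotype, limma adjusted p = 0.054). The groups did not overlap, which gives the smallest p that the two-sided exact permutation test over 70 splits allows, 0.0286. In brain the same probe differed by 0.39 (SE 0.15, limma adjusted p = 1, exact permutation p = 0.0857). The second probe read 6.74, 6.12, 7.04 and 6.93 in wild-type and 7.46, 7.79, 7.41 and 7.77 in homozygous liver, 0.90 (SE 0.20, limma adjusted p = 0.0624, exact permutation p = 0.0286). In brain it read 6.37, 6.94, 6.39 and 6.93 in wild-type and 7.07, 7.13, 7.66 and 7.53 in homozygous mice, 0.69 (SE 0.19, limma adjusted p = 1, exact permutation p = 0.0286), with no overlap. Neither probe passed in either tissue.

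In liver, 11 of the 37 tested probes of the flanking genes passed an adjusted p of 0.05, which is 29.7% against a background of 0.903% over all 11955 probes tested (limma with Benjamini-Hochberg adjustment over all probes). They belonged to 9 genes. Il18 and Sorl1 rose in homozygous mice, and Nxpe2, H2ax, Dnaja4, Pkm, Mcam, Atm and Trappc4 fell, Trappc4 on 2 probes. The 11 include a second Atm probe that no homozygous array detected and that entered the test only through its wild-type signal. Without such probes 10 of 36 passed (27.8%), against 0.847% of the 11924 over all genes. The background was 0.368% for higher and 0.535% for lower calls, and the median difference over the 37 probes was 0.0025 on the log2 scale (0.0208 over all probes). Of the 37 probes, 19 read higher and 18 lower in homozygous mice. Their median absolute difference was 0.322, against 0.175 over all probes. The wild-type and homozygous groups did not overlap at 17 of the 37 probes (45.9%, background 13%). An unadjusted p under 0.05 was reached by 16 of the 37 (43.2%, background 22.6%). Both the 17 and the 16 include the Atm probe that no homozygous array detected. The number of passing probes depended on single arrays. It fell to 1 when wild-type array 1 or homozygous array 1, 3 or 4 was left out. In those fits 0.0753% to 0.117% of all probes passed. It was 3 without homozygous array 2 (0.586% of all probes), 4 without wild-type array 2 (0.159%) and 5 without wild-type array 4 (1.43%). Without wild-type array 3 it was 14, where 7.99% of all probes passed.

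**Figure D1:**
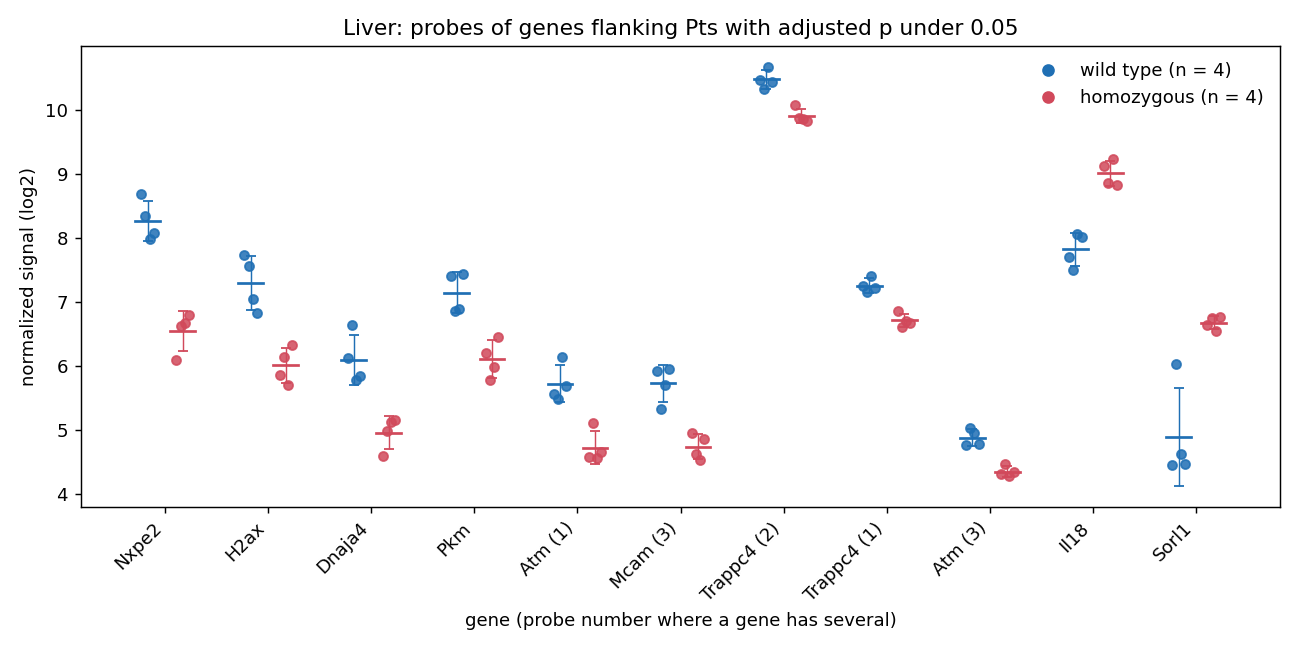
Normalized log2 signal of the 11 liver probes of flanking genes with adjusted p under 0.05, ordered by their change; points are the 4 wild-type (blue) and 4 homozygous (red) mice, short lines the mean and bars the SD. Homozygous minus wild type is -1.72 for Nxpe2 on the left and 1.79 for Sorl1 on the right, and wild-type mouse 2 stands above the other wild-type mice for Sorl1; no homozygous array detected Atm probe 3.

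In brain, none of the 40 tested probes of 33 flanking genes passed (background 0.0144%, 2 of 13862 probes, limma). At an unadjusted p under 0.05 there were 9 probes (22.5%, background 3.17%). With array brightness as a block 2 probes passed, where 0.0361% of all probes did. The groups did not overlap at 11 of the 40 probes, 5 higher and 6 lower in homozygous mice (27.5%, background 2.06%). Both the 9 and the 11 include the Bco2 probe. No homozygous brain array detected it, and it entered the test only through its wild-type signal. The median difference was 0.0456 (0.0046 over all probes) and the median absolute difference 0.182, against 0.0847 over all probes. The genes whose differences are given below for brain are therefore described by their values, and none of them counts as changed by the test.

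**Figure D2:**
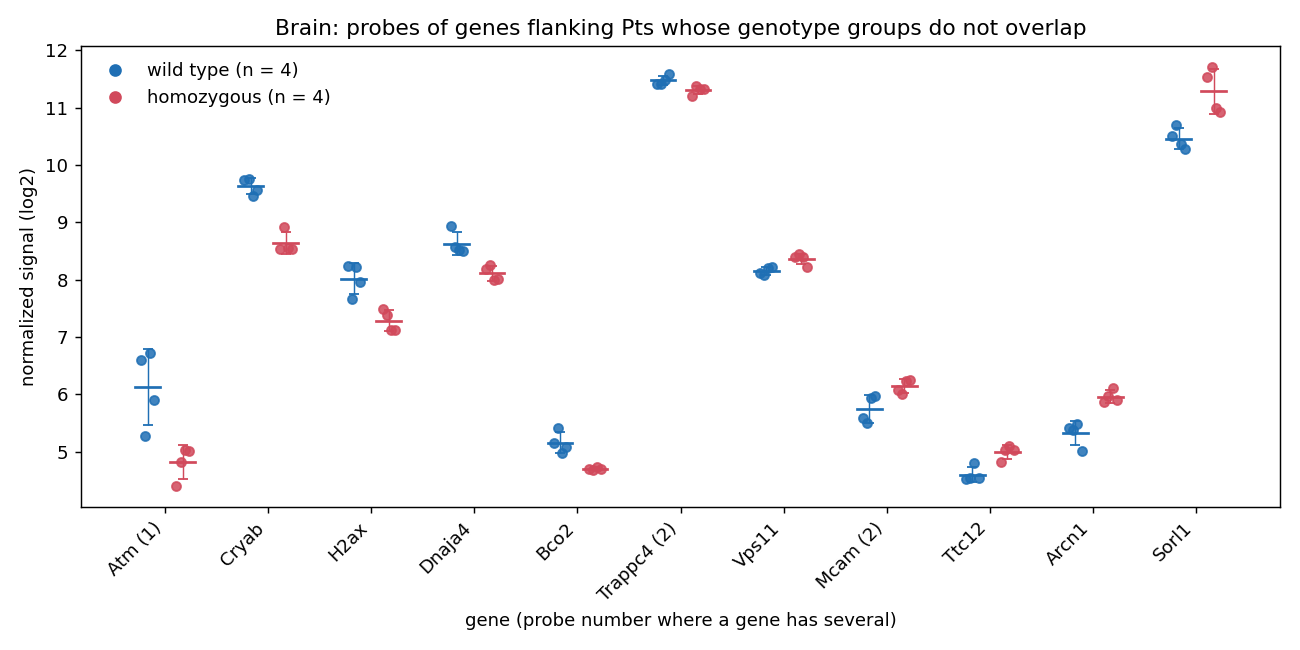
Normalized log2 signal of the 11 brain probes of flanking genes whose wild-type (blue) and homozygous (red) mice did not overlap; points are 4 mice per genotype, short lines the mean and bars the SD. Atm and Cryab lie lowest in homozygous relative to wild-type brain and Sorl1 highest. None of the 11 had an adjusted p under 0.05, and no homozygous brain array detected Bco2.

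Among the cytokine and lymphocyte genes, only the Il18 probe was tested in liver, and it rose. Il18 read 7.71, 7.50, 8.06 and 8.01 in wild-type and 9.12, 8.86, 9.23 and 8.83 in homozygous mice, a log2 difference of 1.19 (SE 0.15, adjusted p = 0.0199, limma). Every homozygous array lay above every wild-type array. Beside it, the markers of liver macrophages, cells known to make Il18, averaged 5.86 to 6.05 in wild-type and 5.47 to 5.68 in homozygous liver, with 5 of their 6 genes tested, 0 higher and 1 lower, and Cd5l undetected, and their part in the Il18 value was not tested. Without wild-type mice 1 and 2 the Il18 difference was 0.97 (adjusted p = 0.044). It did not pass when wild-type array 1 or homozygous array 1, 3 or 4 was left out, where the adjusted p ran up to 0.105. In brain Il18 read 7.84, 7.58, 8.04 and 7.73 in wild-type and 8.16, 8.28, 7.76 and 7.97 in homozygous mice, which overlap (0.24, SE 0.15). Il10ra, a chain of the interleukin-10 receptor, read 4.86, 4.50, 4.97 and 4.44 in wild-type and 5.21, 5.04, 4.61 and 4.70 in homozygous mice in brain and was detected on 2 arrays of each genotype. Cd3e, a T cell receptor subunit, differed by 0.16 in brain (SE 0.35), and 3 other lymphocyte genes, Cd3d, Cd3g and Nkg7, were not detected there.

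Of the 5 adhesion and cell surface genes tested in liver, Nxpe2 and Mcam fell and none rose, with 2 of 7 probes past the threshold. Over all liver probes 0.535% passed as lower. Nxpe2, a member of the neurexophilin and PC-esterase domain family, read 8.68, 8.34, 7.98 and 8.08 in wild-type and 6.09, 6.63, 6.68 and 6.80 in homozygous mice, a difference of -1.72 (SE 0.19, adjusted p = 0.00854, limma). Its groups stood 1.18 apart at their nearest arrays, and it passed in all 8 fits that left out 1 array. Wild-type mice 1 and 2 were the highest, and without them the difference was -1.48 (adjusted p = 0.0288). Nxpe2 was detected on none of the brain arrays.

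Mcam, a cell adhesion molecule of endothelium and smooth muscle, has 3 probes, numbered 1 to 3 as in the plots, and they gave different values. Probe 3 read 5.93, 5.33, 5.71 and 5.96 in wild-type and 4.95, 4.63, 4.53 and 4.87 in homozygous mice in liver, -0.99 (SE 0.16, adjusted p = 0.0418), and was detected on 2 of the 4 homozygous arrays. Probe 1 read 5.34, 5.27, 5.65 and 5.55 in wild-type and 4.95, 4.47, 4.88 and 4.89 in homozygous mice, -0.65 (SE 0.14, adjusted p = 0.0576), again with no overlap. Probe 2 read 5.40, 4.59, 4.86 and 5.33 in wild-type and 4.55, 4.61, 4.85 and 5.00 in homozygous mice, -0.29 (SE 0.19), and its groups overlap. In brain probes 3, 1 and 2 differed by 0.28 (SE 0.15), 0.16 (SE 0.14) and 0.40 (SE 0.14), and only probe 2 kept the groups apart, at 5.59, 5.50, 5.94 and 5.97 in wild-type and 6.08, 6.01, 6.24 and 6.26 in homozygous mice. The endothelial markers averaged 5.53 to 5.70 in wild-type and 5.51 to 5.58 in homozygous liver, and 6.38 to 6.57 against 6.23 to 6.41 in brain, with 3 genes tested in each tissue and 0 that passed. Their part in the Mcam values was not tested.

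The other adhesion genes gave small values. In liver Mpzl2, an epithelial adhesion protein, read 4.82, 5.08, 5.31 and 5.30 in wild-type and 5.20, 5.34, 5.41 and 5.52 in homozygous mice (0.24, SE 0.13), and Rdx, which links the membrane to actin, read 4.62, 4.48, 4.48 and 4.85 in wild-type and 5.00, 4.35, 5.19 and 5.10 in homozygous mice (0.30, SE 0.18) with detection on 1 wild-type and 3 homozygous arrays. Cadm1, a synaptic and epithelial adhesion molecule, differed by 0.00 in liver (SE 0.18) and 0.10 in brain (SE 0.11). Ncam1, the neural cell adhesion molecule with 1 coding gene between it and Pts, differed by 0.05 (SE 0.10) and 0.04 (SE 0.13) on its 2 probes in brain.

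Of the 4 genes of DNA damage and cell division tested in liver, H2ax and Atm fell and none rose, with 3 of 7 probes past the threshold. Over all liver probes 0.535% passed as lower. The 3 include an Atm probe that no homozygous liver array detected. H2ax read 7.74, 7.57, 7.05 and 6.83 in wild-type and 5.86, 6.14, 5.71 and 6.33 in homozygous mice in liver, -1.29 (SE 0.22, adjusted p = 0.0442, limma). The highest 2 wild-type values came from mice 1 and 2, and without both mice the difference was -0.93 (adjusted p = 0.0897). In brain H2ax read 8.24, 7.66, 8.22 and 7.96 in wild-type and 7.49, 7.38, 7.13 and 7.13 in homozygous mice, -0.73 (SE 0.15, adjusted p = 0.913), with every homozygous array below every wild-type array.

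Atm has 3 probes, of which probe 2 was detected on none of the 16 arrays. Probe 1 read 5.57, 5.49, 6.14 and 5.69 in wild-type and 4.58, 5.11, 4.56 and 4.66 in homozygous mice in liver, -0.99 (SE 0.17, adjusted p = 0.0453), and 6.60, 5.28, 6.72 and 5.91 in wild-type and 4.41, 4.83, 5.03 and 5.02 in homozygous mice in brain, -1.31 (SE 0.29, adjusted p = 0.913). In both tissues only 2 of the 4 homozygous arrays detected it, against 4 of the wild-type arrays, and the groups did not overlap. Probe 3 read 4.77, 5.03, 4.95 and 4.78 in wild-type and 4.32, 4.47, 4.28 and 4.34 in homozygous mice in liver (adjusted p = 0.0489). It was detected on all 4 wild-type and on no homozygous liver array, so it is no second measure beside probe 1 and only a bound can be given, at least 1.16-fold lower, computed against the lowest detected signal on each array.

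The remaining genes of this role did not pass. Zw10, which acts at the kinetochore, read -0.12, 0.04 and -0.15 on its 3 probes in liver (SE 0.09 to 0.11) and -0.10, -0.02 and -0.03 in brain. Its liver probe with the smallest p read 6.65, 6.74, 6.78 and 6.75 in wild-type and 6.62, 6.67, 6.53 and 6.50 in homozygous mice, with overlap. Usp28, a deubiquitinase, differed by 0.29 in liver (SE 0.19) and 0.13 in brain (SE 0.16), and Btg4 by 0.07 in brain (SE 0.13). Cep164 and Tex12 were detected on none of the 16 arrays.

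Of the 2 chaperone genes tested in each tissue, Dnaja4 fell in liver and Cryab had the smallest p of all flanking probes in brain. The liver call is 1 of 2 probes, where 0.535% of all liver probes passed as lower. Dnaja4 read 6.12, 6.64, 5.78 and 5.85 in wild-type and 4.59, 4.98, 5.12 and 5.16 in homozygous mice in liver, -1.14 (SE 0.20, adjusted p = 0.0453, limma), and 8.93, 8.57, 8.52 and 8.50 in wild-type and 8.19, 8.26, 7.99 and 8.01 in homozygous mice in brain, -0.52 (SE 0.13, adjusted p = 1). Neither tissue showed overlap. Only 3 of the 4 homozygous liver arrays detected Dnaja4, so its size in liver rests on homozygous readings near background. Cryab read 9.74, 9.75, 9.46 and 9.56 in wild-type and 8.54, 8.92, 8.56 and 8.53 in homozygous mice in brain, -0.99 (SE 0.13, adjusted p = 0.0645), with 0.54 between the lowest wild-type and the highest homozygous array. It passed in 1 of the 8 fits that left out 1 array, the one without homozygous array 2, and in 5 of 15 other settings. With array brightness as a block its adjusted p was 0.0284, and with the replicate block 0.267. Without wild-type mice 1 and 2 it read -0.87 (adjusted p = 0.899). In liver Cryab differed by -0.17 (SE 0.14).

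The 10 other heat shock genes tested in brain had a median difference of -0.25 with 0 passing, and their mean signal was 9.40 and 9.64 in wild-type mice 1 and 2, 9.05 and 9.08 in wild-type mice 3 and 4, and 8.91 to 9.10 in homozygous mice. In liver their median difference was -0.82 over 9 genes, again with 0 passing, and wild-type mice 1 and 2 read 9.69 and 9.97 against 8.70 to 9.09 on the other 6 arrays. Without those mice Dnaja4 in liver read -0.86 (adjusted p = 0.0902). Hspb2, which lies next to Cryab, and Pih1d2 were detected on none of the 16 arrays.

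Of the 6 membrane traffic genes tested in liver, Sorl1 rose and Trappc4 fell. Of their 7 probes 1 passed higher and 2 lower, against 0.368% and 0.535% of all liver probes. Sorl1 read 4.45, 6.03, 4.63 and 4.47 in wild-type and 6.64, 6.75, 6.55 and 6.77 in homozygous mice in liver, 1.79 (SE 0.32, adjusted p = 0.0453, limma). Of the wild-type liver arrays only that of mouse 2 detected it, while all 4 homozygous arrays did, so the size of the difference rests on wild-type readings near background. Without wild-type mice 1 and 2 it was 2.15 (adjusted p = 0.000178). In brain, where all 8 arrays detected it, Sorl1 read 10.50, 10.69, 10.37 and 10.27 in wild-type and 11.53, 11.71, 10.99 and 10.92 in homozygous mice, 0.83 (SE 0.19, adjusted p = 0.934), with the homozygous arrays all above the wild-type ones.

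Trappc4, a subunit of the TRAPP tethering complex, fell on both of its probes. Probe 2 read 10.47, 10.33, 10.67 and 10.43 in wild-type and 10.07, 9.87, 9.85 and 9.83 in homozygous mice, -0.57 (SE 0.11, adjusted p = 0.0476), and probe 1 7.25, 7.15, 7.41 and 7.22 in wild-type and 6.86, 6.61, 6.71 and 6.68 in homozygous mice, -0.54 (SE 0.10, adjusted p = 0.0453). Their differences lay within 1 SE of each other. In brain probe 2 read 11.42, 11.41, 11.48 and 11.59 in wild-type and 11.20, 11.38, 11.32 and 11.33 in homozygous mice, -0.17 (SE 0.10), still without overlap, and probe 1 7.83, 8.06, 7.93 and 7.93 in wild-type and 7.85, 7.93, 7.84 and 7.62 in homozygous mice, -0.13 (SE 0.11), with overlap.

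Vps11, a core subunit of the complexes that tether vesicles to endosomes and lysosomes, narrowly missed the threshold in liver. It read 7.27, 7.49, 7.55 and 7.30 in wild-type and 7.89, 8.01, 7.94 and 7.86 in homozygous mice in liver, 0.52 (SE 0.10, adjusted p = 0.0507), and 8.11, 8.08, 8.21 and 8.22 in wild-type and 8.39, 8.44, 8.39 and 8.23 in homozygous mice in brain, 0.21 (SE 0.10). The groups did not overlap in either tissue. Arcn1, the delta subunit of the COPI coat, read 5.41, 5.38, 5.48 and 5.02 in wild-type and 5.87, 5.97, 6.11 and 5.90 in homozygous mice in brain, 0.64 (SE 0.13, adjusted p = 0.913), with no overlap. In liver it read 6.81, 6.46, 6.21 and 6.43 in wild-type and 6.65, 6.43, 6.93 and 7.00 in homozygous mice, 0.28 (SE 0.16), with overlap. Bace1 read 7.72, 7.47, 7.40 and 7.67 in wild-type and 7.93, 7.77, 7.87 and 8.44 in homozygous mice in liver, 0.44 (SE 0.16, adjusted p = 0.152), and 9.27, 9.26, 9.21 and 9.47 in wild-type and 9.46, 9.22, 9.88 and 9.52 in homozygous mice in brain, 0.22 (SE 0.14). Its liver groups were 0.05 apart. Rab39, a small GTPase, read 5.48, 5.70, 5.06 and 5.01 in wild-type and 5.01, 5.06, 4.97 and 5.27 in homozygous mice in brain (-0.23, SE 0.16). Pcsk7, a proprotein convertase, differed by 0.03 in liver and 0.06 in brain (SE 0.13 and 0.12).

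Of the 6 metabolic and mitochondrial genes tested in liver, 5 did not pass. Pkm fell, as 1 of 7 probes, where 0.535% of all liver probes passed as lower. It read 7.41, 6.86, 6.89 and 7.43 in wild-type and 6.21, 5.78, 5.99 and 6.46 in homozygous mice, -1.04 (SE 0.19, adjusted p = 0.0453, limma), and 12.13, 11.84, 12.38 and 11.81 in wild-type and 11.98, 11.25, 11.34 and 11.95 in homozygous mice in brain, -0.41 (SE 0.20), where the groups overlap. Pkm lies farthest from Pts after it, with 125 coding genes between them. Dpagt1, the enzyme of the first step of N-glycan assembly, read 10.42, 10.43, 10.31 and 10.14 in wild-type and 9.96, 10.02, 9.78 and 9.82 in homozygous mice in liver, -0.43 (SE 0.11, adjusted p = 0.0817), with no overlap, and 8.89, 9.48, 8.76 and 9.51 in wild-type and 8.40, 8.52, 9.08 and 9.21 in homozygous mice in brain, -0.36 (SE 0.23), with overlap.

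Dlat and Bco2 did not pass in either tissue. Dlat read 5.44, 5.24, 6.21 and 6.10 in wild-type and 6.37, 6.63, 6.44 and 6.78 in homozygous mice in liver, 0.81 (SE 0.22, adjusted p = 0.0996), with no overlap, and 8.56, 8.29, 8.57 and 8.58 in wild-type and 8.32, 8.17, 8.22 and 8.32 in homozygous mice in brain, -0.24 (SE 0.11), with overlap. Wild-type mice 1 and 2 had the lowest liver values, and without them the liver difference was 0.40 (adjusted p = 0.286). Bco2, the carotenoid-cleaving oxygenase whose gene is the next coding gene after Pts, read 5.16, 5.41, 4.98 and 5.08 in wild-type and 4.70, 4.69, 4.74 and 4.70 in homozygous mice in brain (adjusted p = 1). All 4 wild-type and no homozygous brain arrays detected it, which gives only a bound, at least 1.21-fold lower. In liver the same probe read 6.58, 6.62, 8.25 and 7.86 in wild-type and 7.77, 7.92, 7.86 and 7.92 in homozygous mice, 0.54 (SE 0.35, adjusted p = 0.375). There wild-type mice 1 and 2 lay below all other arrays, and without them the liver difference was -0.19 (adjusted p = 0.588), so its direction turned. Acat1 read 6.33, 6.04, 6.97 and 6.43 in wild-type and 6.47, 7.03, 6.85 and 7.09 in homozygous mice in liver, 0.42 (SE 0.21, adjusted p = 0.256). Timm8b, a chaperone of the mitochondrial intermembrane space, read 11.18, 11.11, 11.07 and 11.03 in wild-type and 11.00, 10.85, 10.98 and 10.98 in homozygous mice on 1 liver probe, -0.15 (SE 0.09), and -0.07 on the other (SE 0.09). Fdx1 and Fdxacb1 were detected on none of the 16 arrays.

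The signalling, ubiquitin, channel and cilium genes gave no call. In brain Ttc12, a dynein arm assembly factor, read 4.52, 4.54, 4.80 and 4.54 in wild-type and 4.82, 5.04, 5.11 and 5.03 in homozygous mice, 0.40 (SE 0.11, adjusted p = 1), with no overlap, and 1 wild-type and 4 homozygous arrays detected it. Sik3, a salt-inducible kinase, read 5.50, 5.27, 5.08 and 5.73 in wild-type and 5.65, 4.95, 5.27 and 4.55 in homozygous mice (-0.29, SE 0.23) and Dixdc1, a Wnt signalling protein, 6.73, 6.13, 6.84 and 6.53 in wild-type and 6.86, 6.58, 6.95 and 6.64 in homozygous mice (0.20, SE 0.16), both in brain and both with overlap. Sik2 differed by 0.07 in brain (SE 0.22) and Ppp2r1b by -0.07 in liver (SE 0.12). The sodium channel beta subunits Scn2b and Scn4b differed by -0.15 (SE 0.18) and 0.08 (SE 0.12) in brain. The ubiquitin ligase genes Cul5, Ube4a and Rnf214 differed by 0.02, 0.03 and 0.21 in liver (SE 0.10 to 0.12), where Rnf214 read 6.40, 6.76, 6.76 and 6.49 in wild-type and 6.71, 6.88, 6.76 and 6.89 in homozygous mice. Ankk1 was detected on none of the 16 arrays, and Ift46 on 1.

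The genotype groups did not overlap in either tissue at 6 probes, those of Sorl1, H2ax, Dnaja4 and Vps11, Atm probe 1 and Trappc4 probe 2. They are 6 of the 30 flanking probes tested in both tissues (20%), against 37 of 10492 over all probes (0.353%), and like the other shares this one describes the list. Sorl1 and Vps11 read higher in homozygous mice in both tissues and the other 4 lower in both. The brain and liver arrays came from the same 8 mice, so the 2 tissues are not independent sets of animals.

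The difference between the tissues was tested itself, as the homozygous minus wild-type difference in liver minus that in brain, for the 30 probes of 24 flanking genes tested in both. Only Mcam probe 3 passed, at -1.27 on the log2 scale (SE 0.22, adjusted p = 0.0411, limma), from 0.28 in brain and -0.99 in liver. That is 3.33% of the 30 probes, against 0.0762% of all 10492, or 0.0477% counting lower values alone. With the mouse as a block its adjusted p was 0.0664. It did not pass when wild-type mouse 1 or 4 or any 1 homozygous mouse was left out. The next values were 0.95 for Il18 and 0.82 for Cryab (both adjusted p = 0.144), then 1.05 for Dlat and -0.81 for Mcam probe 1 (both adjusted p = 0.151). For the remaining 25 probes the adjusted p was 0.285 or higher, so a difference between the tissues was not shown for Sorl1, H2ax, Atm, Dnaja4, Pkm or Trappc4.

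**Figure D3:**
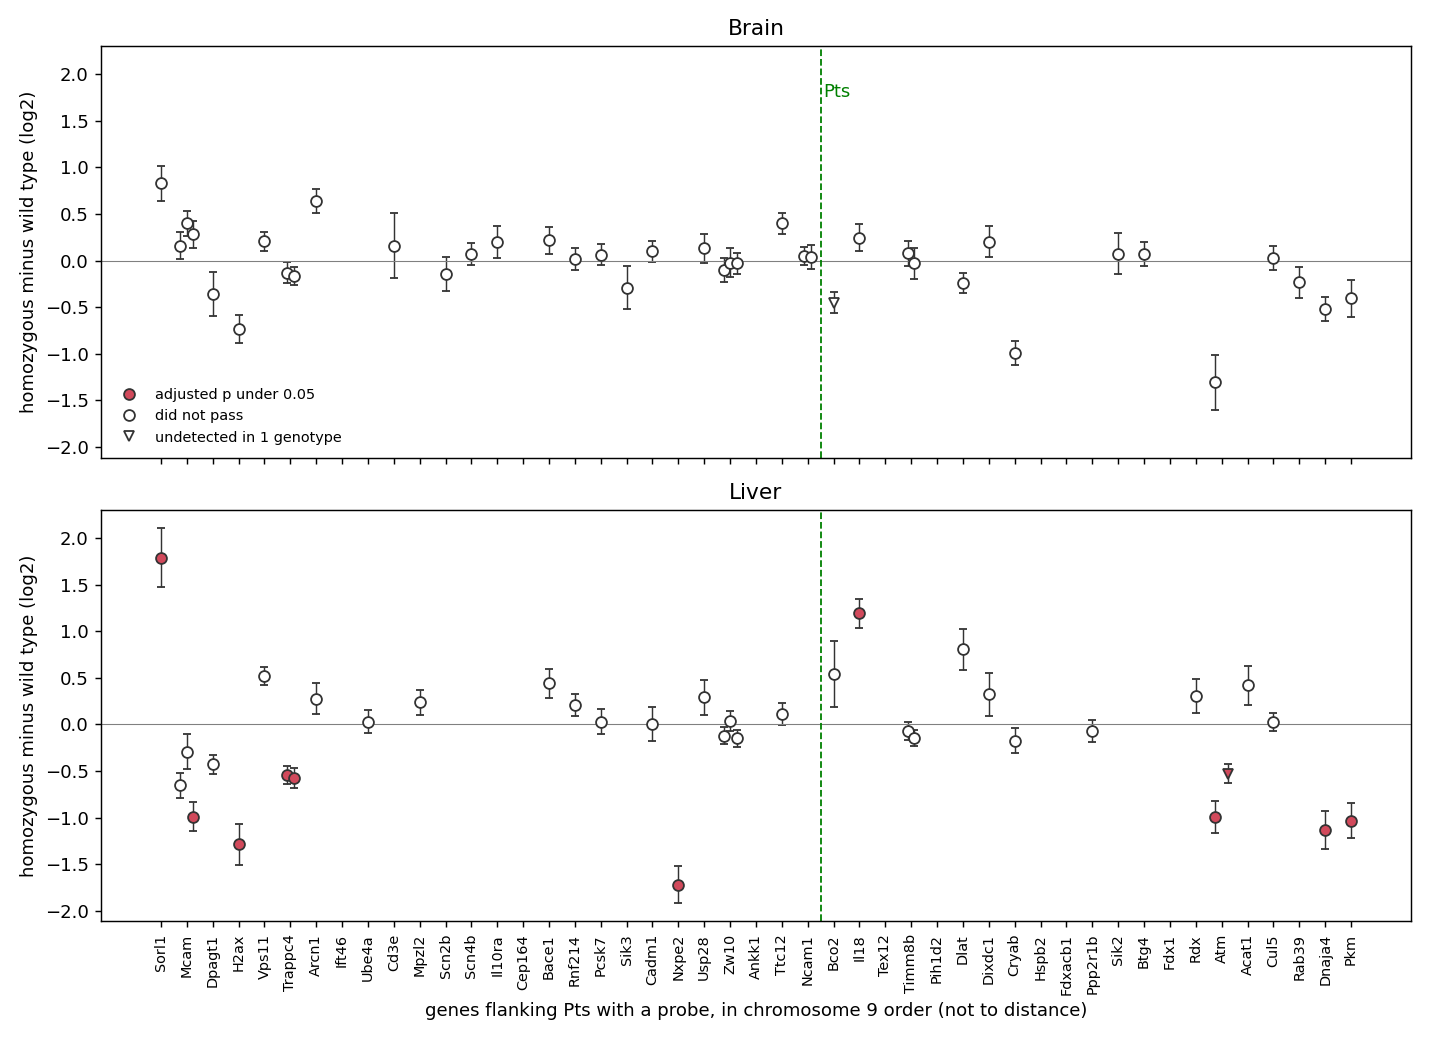
Homozygous minus wild-type log2 difference of every tested probe of the flanking genes in brain (top) and liver (bottom), with genes in their order along chromosome 9, not to distance; bars are the SE of the fit, filled points have an adjusted p under 0.05 and the dashed line marks Pts. Filled points occur on both sides of Pts in liver and nowhere in brain, and higher and lower values occur on both sides. Triangles mark the probes of Bco2 in brain and Atm in liver that no homozygous array detected, whose differences are not measured sizes.

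Passing genes lay on both sides of Pts in liver. Of the 22 probes tested before Pts, 1 passed higher and 5 lower, and of the 15 after it, 1 higher and 4 lower. Over all liver probes 0.368% passed higher and 0.535% lower. Within 5 Mb of Pts, 5 of the 24 listed probes passed, and between 5 and 10 Mb 6 of 13 did. Over all genes of the stretch, Pts included, the order of the shares was the reverse. There 11 of 56 probes (19.6%) passed within 5 Mb and 8 of 73 (11%) between 5 and 10 Mb, so the list gives no trend with distance. Some neighbouring genes read differently: Timm8b, Dlat and Cryab, with a few genes between them, gave -0.15 and -0.07, 0.81 and -0.17 in liver. H2ax and Vps11, with 1 coding gene between them, gave -1.29 and 0.52. Of these genes only H2ax passed. Other neighbours read in the same direction, such as Dpagt1 and H2ax with -0.43 and -1.29. In brain the groups did not overlap at 5 higher and 2 lower probes of 26 before Pts, and at 0 higher and 4 lower of 14 after it. Over all brain probes 2.06% did not overlap. None of these flanking probes passed in brain, and the lower ones after Pts include Bco2, which no homozygous brain array detected.

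Other genes of the same stretch also passed. In liver, 8 of the 92 other probes tested within 10 Mb passed (8.7%), against 2 of 459 on chromosome 9 beyond 10 Mb (0.436%). The 8 include a Tmem25 probe that no homozygous liver array detected. In brain, 2 of 117 other probes within 10 Mb passed (1.71%) and 0 of 581 beyond. The 2 are a Tmem25 and an Alg9 probe that no homozygous brain array detected. Both entered the test only through their wild-type signal, and without such probes 0 of 13844 passed over all genes, so the 1.71% is no measured contrast. The groups did not overlap at 16.3% of the other liver probes within 10 Mb and 10.7% beyond, and at 6.84% and 1.38% in brain. The other probes within 10 Mb include the 2 Pts probes, neither of which passed. The groups of both did not overlap in liver, nor those of the second in brain. Since the list was drawn up with the calls known, its larger share of passing probes than that of the other genes of the stretch is fixed by the choice. Another list of 52 genes, also drawn up with earlier results known, held Pts itself and other genes around it. Of the 52, 46 had a probe. Of its 31 genes tested in brain, 2 fell, Tmem25 and Alg9. Of its 28 genes tested in liver, 2 rose, Apoa4 and Fxyd6, and 4 fell, Tmem25, Alg9, Nnmt and Srpr. Of these, only Srpr lies more than 10 Mb from Pts. The calls of the others are the same ones counted above among the other probes within 10 Mb, and are no further set. Among all probes tested, 0.0144% passed in brain and 0.903% in liver. Tmem25 read 10.74 to 11.48 on the wild-type brain arrays and 4.28 to 4.42 on the homozygous ones, where no array detected it.

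Brain and liver levels were compared on the authors' normalized values over the arrays of both genotypes. The 8 brain arrays did not overlap the 8 liver arrays at 27 of the 47 flanking probes counted, with 19 higher in brain and 8 in liver. That share of 57.4% is close to the 59.6% over all probes and so is no trait of the flanking genes. Pkm had a median of 4234 in brain (2732 to 6066) and 282.7 in liver (211.2 to 379.7), and Scn4b 1396 (1172 to 1555) and 123.1 (118.8 to 128.2). Sorl1 had 2000 in brain (1432 to 3716) and 249.4 in liver (132.4 to 293.2). An Ncam1 probe had 853.6 and 121.8, Cadm1 1627 and 404.2, and Cryab 731.7 and 177.7. Among these are the adhesion and channel genes of neurons.

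Higher in liver were Nxpe2, with a median of 389.1 (231.7 to 671.9) against 124.6 in brain (122.6 to 129.0), and Bco2, with 455.7 (274.1 to 551.9) against 135.5 (131.3 to 152.3). Dpagt1 had 1361 in liver and 646.5 in brain, and Acat1 282.8 and 133.7. Il18 had 609.8 in liver (390.0 to 875.2) and 362.3 in brain (313.6 to 436.8), so its tissues overlap. In all, 20 of the 56 probes were detected on all 16 arrays and 8 on none.

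**Figure D4:**
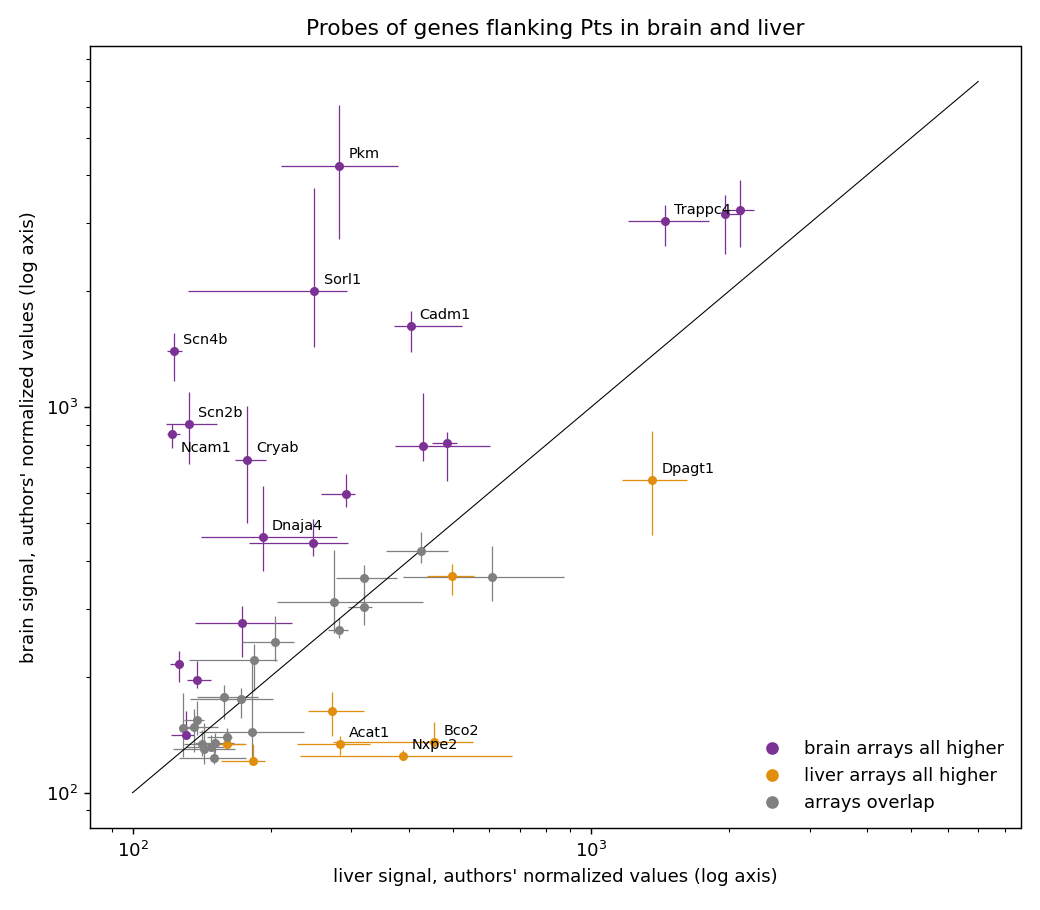
Median signal of each counted probe of the flanking genes in the 8 liver (x axis) and 8 brain (y axis) arrays, on the authors' normalized values and log axes, with the range over arrays as bars; the diagonal marks equal signal and genes named differ by more than about 2-fold. The 19 probes higher on every brain array include Pkm, Scn4b, Sorl1 and Ncam1, and the 8 higher on every liver array include Nxpe2 and Bco2.

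The liver calls were repeated under 12 other settings, of which 11 changed the processing or the model and 1 left out wild-type mice 1 and 2, and in 8 fits that each left out 1 array. Nxpe2 passed in 11 of the 12 and all 8 of these, and Il18 in 12 of 12 and 4 of 8. Sorl1 passed in 8 of 11 settings that could test it and 2 of the 8, and Mcam probe 3 in 9 of 11 and 3 of the 8. H2ax passed in 6 of 12 and 2 of 8, Pkm in 7 of 12 and 1 of 8, Dnaja4 in 5 of 11 and 2 of 8, Atm probes 1 and 3 in 6 of 11 each and in 2 and 1 of 8, and Trappc4 probes 1 and 2 in 7 and 6 of 12 and 1 of 8 each. All 11 kept their direction in every one of these fits.

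**Figure D5:**
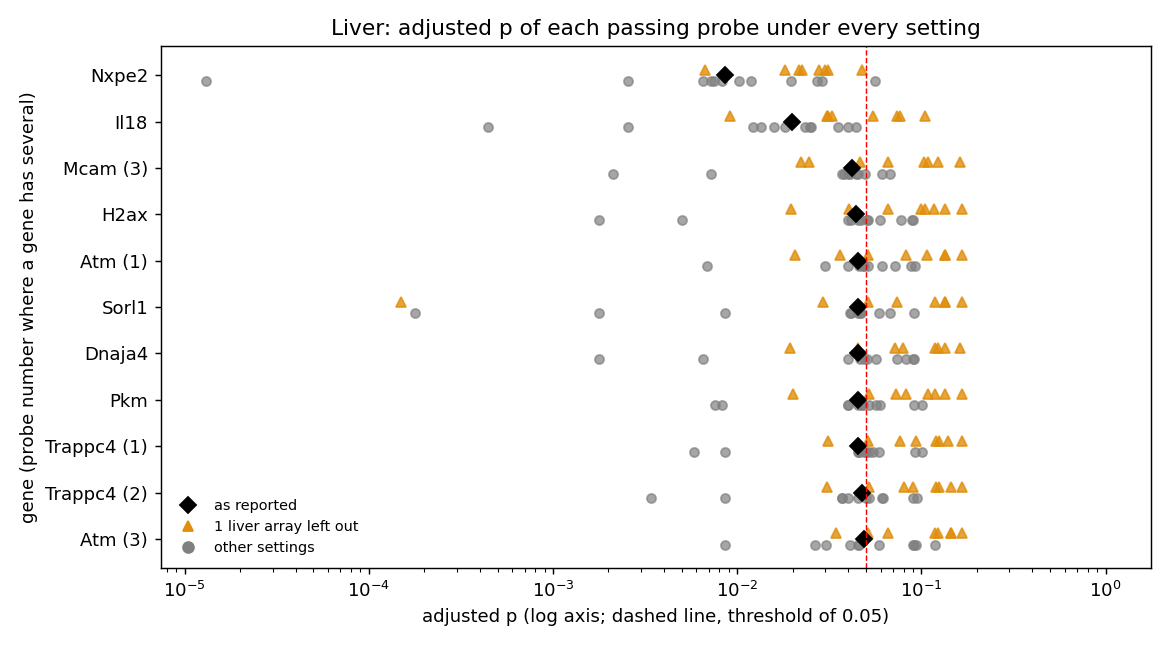
Adjusted p (log x axis) of the 11 passing liver probes as reported (black diamonds), with 1 liver array left out (orange triangles) and under the other settings (grey circles); the dashed line is the threshold of 0.05. Nxpe2 lies left of the line with any 1 array left out, while most other probes lie on both sides of it.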

How the data were processed

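RNA of brain and liver from 8 mice was measured on 16 single-colour bead arrays. The deposited signals are linear intensity values summarized per bead type and left unnormalized, each with a detection p-value from the authors' table, per the file headers. A second deposited table holds the authors' normalized intensity values. The submitters' processing notes name GenomeStudio 2011.1, and its settings are not given in the sources used here. All per-sample columns were used (0 left out).

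Signals were background-corrected with nec of limma 3.58.1 (R 4.3.3; offset 16, with the detection p-values), quantile-normalized by tissue and log2-transformed. Testing was limited to probes that 4 or more of the tissue's 8 arrays detected (p-value under 0.05). Genotypes were compared with lmFit and eBayes over all tested probes, with Benjamini-Hochberg adjustment over all of them and a threshold of 0.05. The genotype effect in liver minus that in brain was fitted over all 16 arrays. The p-values of the fits within a tissue measure the spread between mice. The fit over all 16 arrays had no term for the mouse, so it treated the brain and liver arrays of a mouse as independent. A fit with the mouse as a block was an alternative. Procedures were tested on simulated data.

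Probes were named from the platform's gene symbols, and gene order and distance came from the RefSeq table of GRCm38.p6. The deposited tables name no build, so no coordinates of probes are given. The genes, gene lists and roles were chosen with earlier results of these data known. Values of every mouse are given for genes with a passing probe and then for the next genes by unadjusted p, up to 20 genes per tissue; Bco2 in liver was added after its values were seen. Where a group detected a tested probe on none of its arrays, its change is given as a bound, from the higher of the probe's own value and the lowest detected signal on each array.

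Replicate numbers do not pair wild-type with homozygous mice, which were different animals: the same-number correlations of the deviations from the group means were -0.511 to 0.563 in brain and -0.0359 to -0.00178 in liver. Brain and liver arrays of 1 mouse are paired by the animal, and their correlations were -0.00225 to 0.126. Arrays of a group correlated at 0.9773 to 0.9967, and 0 pairs were identical. The alternatives tried were other background corrections, normalizations and filters on dim probes, other variance models, the replicate block, array brightness as a block and leaving out each array in turn.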

Additional observations from a re-analysis of the deposited data

Results flagged for a closer look

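Of 154 groups of 4 arrays over the tested probes of the flanking genes, 8 held an array whose gap to the other 3 exceeded Dixon's critical value as a share of the group's range, where chance gives about 1 in 20 groups (7.7 of 154). In brain, Cryab read 8.92 in homozygous mouse 2 against 8.53 to 8.56 in the other 3, Dlat read 8.29 in wild-type mouse 2 against 8.56 to 8.58, and Ttc12 read 4.80 in wild-type mouse 3 against 4.52 to 4.54. In liver, Sorl1 read 6.03 in wild-type mouse 2 against 4.45 to 4.63, and Trappc4 probe 2 read 10.07 in homozygous mouse 1 against 9.83 to 9.87. Homozygous mouse 2 held the other 3 cases in liver: Mcam probe 1 at 4.47 against 4.88 to 4.95, a Timm8b probe at 10.85 against 10.98 to 11.00, and Ttc12 at 5.01 against 4.73 to 4.77. Of the 8, Sorl1 and Trappc4 belong to probes that passed the test in liver, and both kept their direction when that array was left out.

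Mcam probe 3 is listed because the genotype effect differed between the tissues in the test of the difference itself, at -1.27 on the log2 scale (limma adjusted p = 0.0411), with 0.28 in brain and -0.99 in liver. The adjusted p was 0.0664 with the mouse as a block.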

How the results depend on the processing

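In liver 11 probes of flanking genes passed. The count was 6 with no background correction, 4 with all 16 arrays quantile-normalized together, 2 with no filter on dim probes, 2 with only probes detected on all 8 arrays, 3 with the replicate block and 4 without wild-type mice 1 and 2, where Nxpe2, Il18, Sorl1 and Mcam probe 3 passed. It was 10 to 12 under 4 others, 14 with all 16 arrays in 1 fit and 16 with array weights, and leaving out 1 array gave 1 to 14. Of all liver probes 0.903% passed as reported. The share was 24.5% under array weighting, 7.53% when both tissues were fitted together and 7.99% without wild-type array 3. The higher counts of flanking probes thus came with far more calls over all probes. The share was 0.136% to 0.652% in the settings named above with counts of 2 to 6, and 0.0753% to 0.117% in the fits left with 1. The lower counts thus came with fewer calls over all probes, except without wild-type array 4 (1.43%). In brain 0 probes passed. The count was 1 with normexp without detection p-values, with all 16 arrays quantile-normalized together and with trended and robust variances. It was also 1 within the brighter arrays and with all 16 arrays in 1 fit. With array brightness as a block it was 2 (Cryab, limma adjusted p = 0.0284, and H2ax, 0.0327). Of all brain probes 0.0216% to 0.0289% passed where the count was 1 and 0.0361% where it was 2, against 0.0144% as reported. It was 0 within the dimmer arrays and with the replicate block, and leaving out 1 array gave 0 to 1. For the difference between the tissues 1 probe passed. The count was 2 on the authors' normalized values, where 0.162% of all probes passed, against 0.0762% as reported. It was 8 with array weights, where 11.9% of all probes passed. It was 0 for probes detected on all 16 arrays, with the mouse as a replicate block and without wild-type mice 1 and 2. Leaving out 1 mouse gave 0 to 2, the 2 without wild-type mouse 3, where 0.782% of all probes passed. No single probe that had passed changed its direction under any of these settings. Over 2200 values of single probes, 115 lost and 34 gained the threshold, and 102 that did not pass changed sign. The cause of these shifts was not tested, and in the fits that left out arrays fewer mice were compared. Signal near background limits Sorl1, Mcam, Atm and Dnaja4 in liver.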
